A study of Homo sapiens with 4 samples.

Results

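Cytosolic ribosomal proteins are the proteins of the ribosomes that translate nuclear encoded messenger RNAs, and their genes were followed here on arrays of HCT116 derived clones. The members are all array probes that are not controls and whose gene name is RPL or RPS followed by a number, with an optional letter A, X or L, together with RPLP0, RPLP1, RPLP2, RPSA and FAU. Pseudogenes, the S6 kinases and Y-linked genes were left out. This gave 216 probes for 82 genes, among the 50238 probes of the array that are not controls, which carry 31033 distinct gene names. Each gene is represented by its brightest probe over the 4 arrays, and the further probes of 57 genes are given beside it.

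The ribosome joins a large and a small subunit, each built of ribosomal RNA and a fixed set of proteins that are needed in like amounts. The small subunit reads the messenger RNA, and the large subunit forms peptide bonds and carries the P stalk, on which translation factors act. The genes are among the most highly expressed of growing cells, and their messages often begin with a C and a run of pyrimidines, the terminal oligopyrimidine (TOP) motif, through which mTOR signaling and LARP1 control their translation.

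HCT116 is an established colorectal carcinoma line, and the study compared a vector control clone (vec) with a clone that stably carries a plasmid encoding a short hairpin RNA against plakophilin 3 (shpkp3-2), a desmosomal plaque protein. Each clone was hybridized to 2 single color Cy3 arrays, and the first array of each clone came from another RNA collection than the second. Both clones were kept under drug selection, 5 μg/ml of puromycin by the sample labels and 5 μg/ml of blasticidin by the methods of the study. Since 1 clone of each kind was hybridized, each value compares these clones. All arrays shared 1 slide on which each clone took neighbouring positions, so that position and clone cannot be told apart.

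PKP3 itself gave 20850.3 and 22839.8 intensity units in vec against 3414 and 3078 in shpkp3-2, a log2 fold change of -2.54 (limma adjusted p = 0.0188). All 5 markers of simple epithelium (EPCAM, CDH1, KRT8, KRT18 and KRT19) were well above background on each array. All 5 had a log2 fold change above 0, against 56.9% of all probes tested. Their median was 0.33 (0.13 by quantile normalization and 0.21 without the first vec array). limma called 0 of them at an adjusted p of 0.05, against 0.397% of all probes. At an unadjusted p of 0.05 the count was also 0, against 12.3%. Of 11 markers of fibroblasts, blood and endothelium, 4 were well above background on each array. The summed intensity was 532 and 310 in vec against 360 and 445 in shpkp3-2. Since RNA was taken from whole cultures, fewer cells that express a gene and less RNA per cell cannot be told apart.

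The start sites of the ribosomal protein genes are shown first, because they hold a sequence feature that many of these genes share and the rule did not use. Of the 82 genes, 65 matched by symbol a window of 250 bases before to 50 bases after a transcription start of NCBI RefSeq, build GRCh38.p14, with 80 windows in all. A C at the first transcribed base followed by at least 4 bases that are each C or T was found, on the strand of the gene, in 47 of the 80 windows (58.8%), against 4.07% of all 35116 windows. When the run could begin up to 5 bases to either side of the start, the shares were 72.5% and 21.1%. Each line gives the 10 bases before the start and the 20 bases from it, 5′ to 3′, with the pyrimidine run that begins at the start in capitals. The genes shown are RPLP0, the genes with large and small differences between the clones, and the parent and paralog genes described further on.
RPLP0, chr12:120201092-120201121, minus strand: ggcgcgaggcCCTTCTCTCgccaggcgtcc
RPL22, chr1:6199576-6199605, minus strand: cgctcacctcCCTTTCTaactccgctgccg
RPS23, chr5:82278335-82278364, minus strand: cggtgcttctCTCTTTCgctcaggcccgtg
RPS12, chr6:132814559-132814588, plus strand: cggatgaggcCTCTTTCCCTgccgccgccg
RPL10, chrX:154398367-154398396, plus strand: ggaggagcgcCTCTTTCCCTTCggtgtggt
RPL28, chr19:55385922-55385951, plus strand: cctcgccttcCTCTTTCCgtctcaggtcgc
RPS26, chr12:56041908-56041937, plus strand: acataacctcgattttcttccgccatccgg
RPS27, chr1:153990752-153990781, plus strand: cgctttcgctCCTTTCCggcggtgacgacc
RPS27L, chr15:63157458-63157487, minus strand: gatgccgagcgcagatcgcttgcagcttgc
RPL10L, chr14:46651762-46651791, minus strand: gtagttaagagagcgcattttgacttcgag
The run was 12 bases long in RPL10, where the start shown is the one of 3 that carries it, and 7 bases long in RPL22, RPS23 and RPS27. Genes with a large difference between the clones, such as RPL22 and RPS23, and genes with a small one, such as RPL10 and RPL28, both have the run, while RPS26, also with a small difference, does not have it within 5 bases of its start. The windows of RPS27L and RPL10L do not have it at the start. A match describes these letters and does not show that a message is under TOP control. The 17 genes with no match included RPL3L, RPL5, RPL7, RPL8, RPL23, RPL23A, RPL30, RPL37, RPL39L, RPS2, RPS15A and RPS20.

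The brightest probes of most ribosomal protein genes were among the brightest spots of the array in both clones. Of the 82 lead probes, 80 were well above background on all 4 arrays by the call of the scanner software. The same held for 28883 of the 50117 probes with values on all arrays. The number among the brightest 1% of spots was 74 and 73 on the vec arrays and 75 on each shpkp3-2 array. Since each lead was chosen as the brightest probe of its gene, this number follows in part from that choice. Some further probes were dim, as described below. All 216 probes together took 16.1% of the summed intensity on each vec array and 17.1% and 17.3% on the shpkp3-2 arrays. RPS28 and RPS2, both of the small subunit, gave the brightest of these spots, with an intensity of 332528 for RPS28 on the first vec array and 325918 for RPS2 on the second shpkp3-2 array. No spot was saturated on any array. The lead probes not well above background on any array were those of RPL39L, a paralog of RPL39 with restricted expression, and RPSA, the laminin receptor precursor that also sits in the small subunit. RPL39L had intensities of 2.29 and 2.37 on the first array of each clone and RPSA of 2.20 and 2.28. The only RPSA probe is listed under the cDNA BC010054, and its values do not show whether the RPSA message was absent. Neither gene entered the main test.

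The ribosomal protein genes were slightly higher in the shpkp3-2 clone than in vec by the main scaling, and none of the differences passed the test. The log2 intensity of a probe minus that of the 75th percentile of its array is called the normalized log2 value here. limma, with Benjamini-Hochberg adjustment over the 30512 probes tested, called 0 of the 80 genes at an adjusted p of 0.05, against 0.397% of all probes tested. At an unadjusted p of 0.05 it called 0 of the 80, against 12.3% of all probes. The lowest adjusted p of the genes was 0.407. A log2 difference of at least 1 from the vec mean on each shpkp3-2 array, in the same direction, was found for 0 of the 80 genes, against 1.74% of all probes.

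The log2 fold changes of the 80 genes lay close together, with a median of 0.23 against 0.051 for all probes tested. They reached 0.56 for RPL22, with quartiles of 0.18 and 0.28, while the quartiles of all probes were -0.16 and 0.26. In 75 of the 80 genes the value was between 0.1 and 0.4. The median was 0.23 for the 48 genes of the large subunit and 0.23 for the 32 genes of the small subunit. The number of genes with a log2 fold change above 0 was 80 of 80 by the 75th percentile, 79 when arrays were centred on their median, 55 after quantile normalization and 52 with no scaling between arrays. The same shares over all probes tested were 56.9%, 47.4%, 50% and 30.1%. Every 95% interval from limma included 0, and the median standard error was 0.19. The highest upper bound was 1.33, for RPL22, and 2 of the 80 intervals reached a log2 fold change of 1, so that a 2-fold difference in either direction lay outside the intervals of the other genes.

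**Figure D1:**
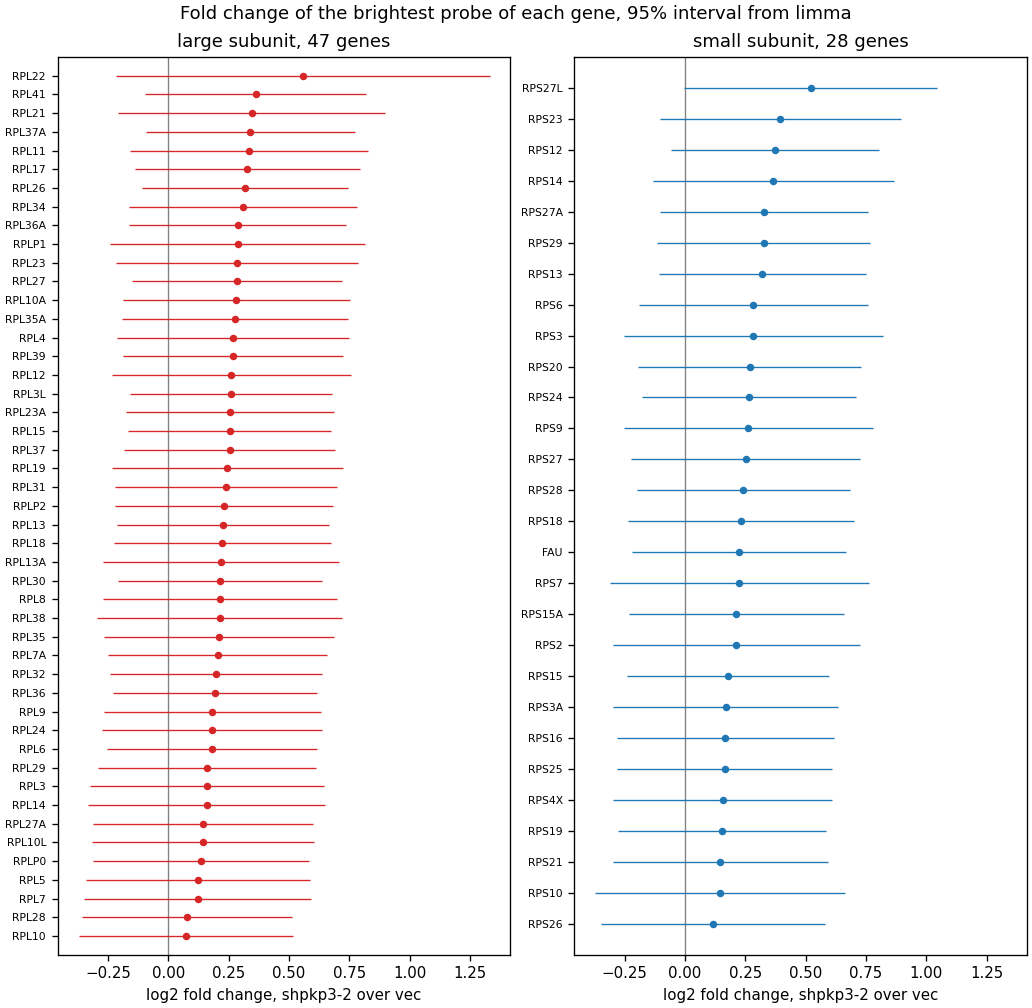
Log2 fold change of the brightest probe of each gene, shpkp3-2 over vec (horizontal axis), with the 95% interval from limma (bars, 2 arrays per clone), for 47 large subunit genes (red) and 28 small subunit genes (blue) of the 80 tested, sorted by value. All points drawn lie above 0 by the 75th percentile scaling, while of the 80 genes 55 do by quantile normalization and 52 with no scaling, and all intervals include 0.

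The first vec array was the low one for most of these genes. The median normalized log2 value over the 80 genes was 8.25 and 8.46 in vec against 8.65 on each shpkp3-2 array. The first vec array was the lowest of the 4 for 73 genes and the second vec array for 7. The second vec array was above the first by a median of 0.24, against 0.051 for all probes tested, while the shpkp3-2 arrays differed by 0.015. The median SD between arrays of a clone was 0.17 in vec and 0.038 in shpkp3-2 for these genes, and 0.20 and 0.12 for all probes. Both shpkp3-2 arrays lay above both vec arrays for 64 of the 80 genes, against 27.2% of all probes, and below both for 0, against 18%. By quantile normalization these counts were 28 and 10, against 22.6% and 22.1%, and with no scaling 17 and 5, against 10.1% and 31.8%. Within an RNA collection the median difference was 0.36 in the first collection and 0.11 in the second. It was above 0 for 79 genes in the first and for 71 in the second. These values are not given over all probes, so they cannot be set against the whole array.

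**Figure D2:**
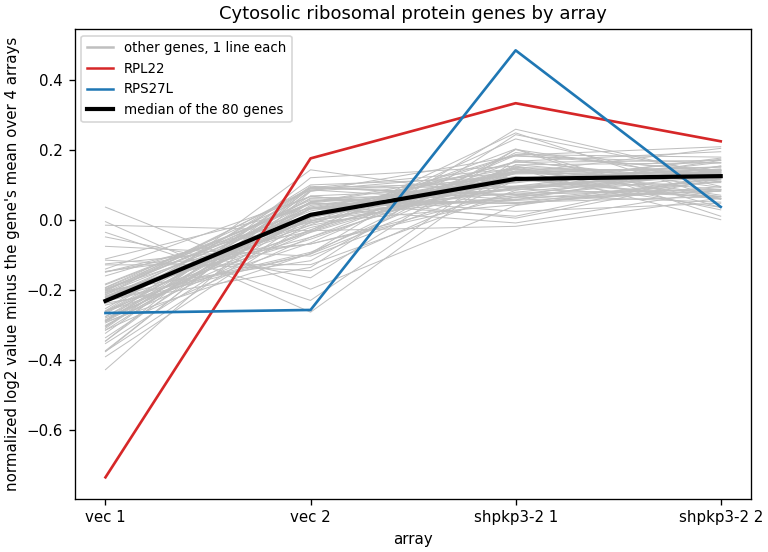
Normalized log2 value (75th percentile scaling) of each of the 80 genes on each array, minus the mean of that gene over the 4 arrays. Each thin line is a gene, RPL22 and RPS27L are coloured, and the black line is the median, which is lowest on vec 1 and nearly equal on the shpkp3-2 arrays; with no scaling 52 of the 80 genes, and not all, are higher in shpkp3-2.

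The size of the shared difference depended on the scaling and on that array. Before any scaling the median intensity of the 80 genes was 151823 and 134359 in vec against 152187 and 150389 in shpkp3-2, so that the first vec array was then as bright as the shpkp3-2 arrays. The 75th percentile of that array, 498.7, was above those of the other arrays, which were 381.1, 378.8 and 374.2. The median log2 fold change of the 80 genes was 0.16 with median centring, 0.061 with quantile normalization and 0.020 with no scaling. With no scaling the median of all probes tested moved to -0.16, and relative to it the ribosomal protein genes were 0.18 higher. This distance is the same by the 75th percentile, by median centring and with no scaling by construction, since these add 1 constant per array, and leaving out the scaling moved the log2 fold change of every probe by -0.21. By quantile normalization the distance to all probes was 0.062. Without the first vec array the median was 0.10, against 0.018 for all probes, and without the second it was 0.35, against 0.067. At an unadjusted p under 0.05, 6 genes were higher with normexp background correction, against 7.34% of all probes, and 8 with a trended prior, against 7.71%. In both settings 0 genes were lower, against 1292 and 1532 of the 30512 probes tested. By quantile normalization 0 were higher, against 5.94%, and 1 was lower, against 6.27%. This was RPS28, named after its values were seen. Its log2 fold change was -0.53 (unadjusted p = 0.0380, adjusted p = 0.375 from limma), against 0.24 by the 75th percentile. RPS28 was the brightest spot of the first vec array, while the brightest spots of the shpkp3-2 arrays, at 708223 and 784716, were other probes. Its intensities before scaling were 332528 and 291913 in vec against 318253 and 318320 in shpkp3-2. Quantile normalization sets values by rank within an array, so that this value of a top-ranked spot is uncertain. Whether the first vec array differed in RNA, labeling or hybridization was not tested. limma called 0 of the 80 genes under each of these settings, and 0 with the RNA collection as a block, where it called 2.78% of all probes.

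**Figure D3:**
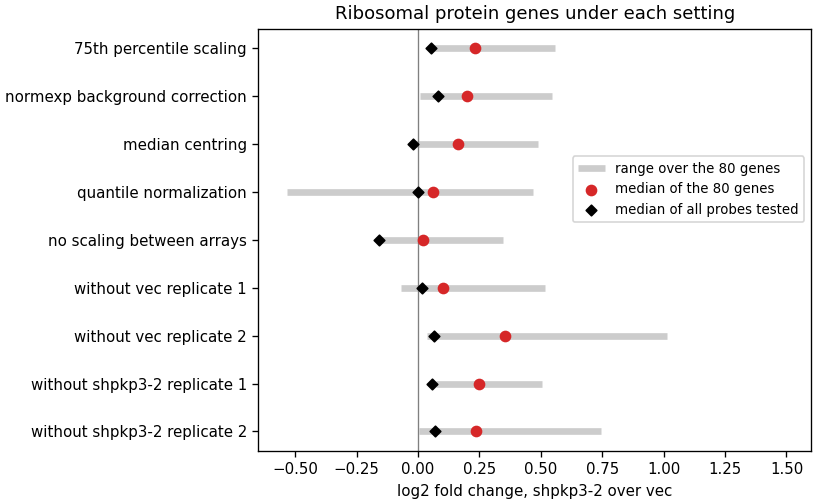
Log2 fold change, shpkp3-2 over vec, of the 80 ribosomal protein genes under 5 ways of scaling or background correction and with each array left out. Grey bars give the range over the genes, red points their median and black diamonds the median of all probes tested; the red point lies right of the diamond in each row, at 0.23 in the first, 0.061 after quantile normalization and 0.020 with no scaling, where some genes lie below 0.

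The P stalk proteins RPLP0, RPLP1 and RPLP2 bind translation factors, and RPLP0 often serves as a reference gene. RPLP0 had normalized log2 values of 8.97 and 9.20 in vec against 9.20 and 9.24 in shpkp3-2. The second vec array lay next to the first shpkp3-2 array, and the log2 fold change was 0.13 with a standard error (SE) of 0.18 (limma adjusted p = 0.792). The other RPLP0 probes gave 0.13 and 0.14. With no scaling it was -0.077 and after quantile normalization -0.036. Without the first vec array it was 0.020, and without the second 0.25. RPLP1 had a log2 fold change of 0.29 and RPLP2 of 0.23, with adjusted p values of 0.622 and 0.638 from limma.

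In the large subunit, RPL22 had the highest log2 fold change. RPL22 binds RNA and is dispensable for translation itself. Its normalized log2 values were 5.05 and 5.96 in vec against 6.12 and 6.01 in shpkp3-2, so that the first vec array stood below the other arrays. The log2 fold change was 0.56 (SE 0.32, limma adjusted p = 0.532), and it was 0.10 without the first vec array and 1.01 without the second. Of the further RPL22 probes, a dimmer one gave 0.69, and those under AF136171 and again NM_000983 gave 0.083 and 0.021. The probes of this gene therefore disagreed by more than those of most genes. RPL22L1, the paralog of RPL22 that falls outside the rule, had values of 8.24 and 8.17 in vec against 8.68 and 8.50 in shpkp3-2, a log2 fold change of 0.39 (limma adjusted p = 0.456).

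Low values of the large subunit were those of RPL10, RPL28 and RPL7. RPL10, a late-joining protein that contacts the peptidyl transferase center, had values of 8.12 and 8.32 in vec against 8.28 and 8.31 in shpkp3-2, with a log2 fold change of 0.073. RPL28 had 8.26 and 8.41 in vec against 8.37 and 8.46 in shpkp3-2, a log2 fold change of 0.076. RPL7 had 7.95 and 8.26 in vec against 8.23 and 8.21 in shpkp3-2, a log2 fold change of 0.12. In these 3 genes at least 1 vec array reached the range of the shpkp3-2 arrays, and the sign turned with quantile normalization and with no scaling.

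In the small subunit, RPS27L, RPS23 and RPS12 had high log2 fold changes. RPS23 lies at the decoding center, and its normalized log2 values were 7.53 and 7.92 in vec against 8.11 and 8.13 in shpkp3-2. RPS12 had 7.31 and 7.41 in vec against 7.79 and 7.67 in shpkp3-2. In these genes both shpkp3-2 arrays lay above both vec arrays, and the smallest two-sided p that an exact permutation test of 2 arrays against 2 allows is 0.33, above 0.05. The log2 fold changes were 0.39 for RPS23 (SE 0.20) and 0.37 for RPS12 (SE 0.18), with adjusted p values of 0.499 and 0.465 from limma. Without the first vec array RPS23 was at 0.20 and RPS12 at 0.32, and by the mean of all its probes RPS23 was at 0.032. RPS26, which binds the message near the exit channel, was the lowest of the small subunit. It had 8.72 and 9.01 in vec against 8.97 and 8.99 in shpkp3-2, and its log2 fold change was 0.12 (SE 0.19, limma adjusted p = 0.830). It was -0.081 after quantile normalization and -0.094 with no scaling.

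Members made as fusions with ubiquitin or a ubiquitin-like domain, and members with known roles outside the ribosome, lay within the same range. RPS27A, a fusion with ubiquitin, had normalized log2 values of 8.33 and 8.47 in vec against 8.76 and 8.70 in shpkp3-2, a log2 fold change of 0.33. FAU, whose product carries the small subunit protein RPS30 behind a ubiquitin-like domain, had a log2 fold change of 0.23. RPL5 and RPL11, which with the 5S RNA can bind and hold back MDM2, had log2 fold changes of 0.12 and 0.34. Their vec values were 8.13 and 8.39 for RPL5 and 7.99 and 8.36 for RPL11, and their shpkp3-2 values were 8.32 and 8.44 for RPL5 and 8.51 on both arrays for RPL11. RPS6, the substrate of the S6 kinases, had 8.66 and 8.98 in vec against 9.102 and 9.105 in shpkp3-2, a log2 fold change of 0.28. RPS3, which also acts in DNA repair, had a log2 fold change of 0.28. The adjusted p of these 6 genes from limma lay between 0.513 and 0.818.

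The paralogs RPL10L and RPS27L were compared with their parents through the sequences of their probes. The probes are 60 bases long, and each is printed 5′ to 3′ as the files give it, with the bases that match the other probe of the pair in capitals. They show how alike the probes are where they overlap. The probes were not compared with the whole message of the parent, so how far the array can tell a paralog from its parent was not tested.
RPL10L probe: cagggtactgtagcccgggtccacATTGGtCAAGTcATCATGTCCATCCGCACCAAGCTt
RPL10 probe: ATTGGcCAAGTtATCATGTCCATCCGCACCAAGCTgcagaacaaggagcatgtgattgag
RPS27L probe: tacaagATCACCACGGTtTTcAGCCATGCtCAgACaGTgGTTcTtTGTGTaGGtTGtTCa
RPS27 probe: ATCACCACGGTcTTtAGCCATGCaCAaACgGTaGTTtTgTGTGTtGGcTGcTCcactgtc
The RPL10 and RPL10L probes overlap over 36 bases and share 33 of them (91.7%). The RPS27 and RPS27L probes overlap over 54 bases and share 42 (77.8%). RPL10L, known from testis, had normalized log2 values of 6.02 and 6.26 in vec against 6.22 and 6.34 in shpkp3-2. Its log2 fold change was 0.14 beside 0.073 for RPL10, and how much RPL10 message the RPL10L probe binds was not tested, so that the RPL10L values are uncertain.

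RPS27L had normalized log2 values of 4.47 and 4.48 in vec against 5.22 and 4.77 in shpkp3-2. The vec arrays were alike, the shpkp3-2 arrays were apart, and both lay above vec. The log2 fold change was 0.52 (SE 0.21, limma adjusted p = 0.407), with a 95% interval from -0.0022 to 1.05, and the unadjusted p of 0.0507 was the lowest of the 80 genes. It was 0.52 without the first vec array, while without the first shpkp3-2 array it was 0.30. Its parent RPS27 had 8.77 and 9.09 in vec against 9.17 and 9.20 in shpkp3-2, a log2 fold change of 0.25. RPL3L, the muscle paralog of RPL3, was dim, with intensities of 122 and 108 on the first array of each clone. Its normalized log2 values were -2.03 and -2.06 in vec against -1.80 and -1.77 in shpkp3-2, a log2 fold change of 0.26 (limma adjusted p = 0.579). RPL3 itself had a log2 fold change of 0.16.

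Many ribosomal protein genes have copies elsewhere in the genome, and their probes can bind more than 1 message. Of the 216 probes, 26 share a run of at least 25 bases with an array probe of another name, and 7 of these are lead probes, those of RPL10, RPL12, RPL26, RPL31, RPL37, RPL39 and RPS10. Their values are uncertain to that extent. Of the 216 probes, 209 could be tested, and limma called 0 of them, with 2 higher at an unadjusted p under 0.05, further probes of RPL21 (log2 fold change 0.44, adjusted p = 0.395) and RPS14 (log2 fold change 0.46, adjusted p = 0.379). Of all probes tested, 7.35% were higher and 4.98% lower at that p.

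Probes of the same gene mostly gave like values. In 48 of the 57 genes with at least 2 probes tested all probes had a log2 fold change above 0 by the 75th percentile, and in 9 they lay on both sides of 0. The median distance between the highest and the lowest probe of a gene was 0.11. RPL21, with 14 probes, had log2 fold changes from 0.24 to 0.44 although the vec means of these probes ran from 4.51 to 8.45. The largest distances were those of RPS20, from -0.47 to 0.27, and of RPL22.

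The probes that differed from the rest were mostly dim. With a limit at a mean normalized log2 value of 4, chosen after the values were seen, 183 probes lay above it, and 181 of them had a log2 fold change above 0, with a median of 0.23. The probes below 0 among them were both of RPS26, at -0.074 and -0.057. The 26 dimmer probes were split into 13 above and 13 below 0, with a median of -0.0025 and a range from -0.47 to 0.40. RPL28 shows the contrast, as its brightest probe had 0.076 while probes under the transcript NM_001136137 had -0.37 and -0.30, with adjusted p values of 0.456 and 0.545 from limma. RPS23 had 0.39 at its brightest probe and -0.18 and -0.12 at dim ones. Over all probes tested the median was 0.13 for the 2798 above the limit, 73.8% of which were above 0, and 0.040 for the 27714 below it, with 55.2% above 0. These counts are by the 75th percentile scaling, and the sign of single genes turns with the scaling as given above.

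**Figure D4:**
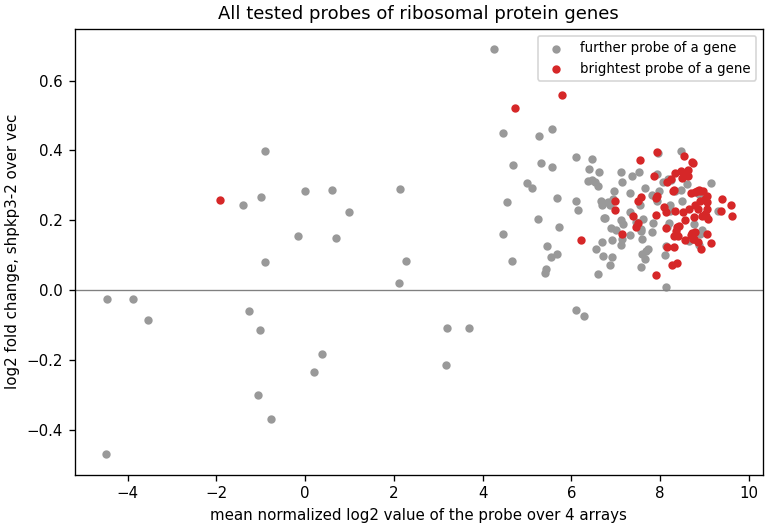
Log2 fold change, shpkp3-2 over vec (75th percentile scaling), of the 209 tested probes against their mean normalized log2 value over the 4 arrays. Red points are the brightest probe of each gene and grey points the further probes; the bright probes gather mostly between 0 and 0.5, the dim ones spread to both sides of 0, and with no scaling 28 of the 80 red points fall below 0.

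Genes that act with the cytosolic ribosome were described beside it, each by its brightest probe. limma called 0 genes of every list that follows. The 51 genes of ribosome biogenesis, which process ribosomal RNA and assemble subunits, had a median log2 fold change of 0.21, and 43 were above 0. Of these, 2 were higher and 0 lower at an unadjusted p under 0.05, against 7.35% and 4.98% of all probes tested. RRP12, an export factor of the subunits, had the highest value, with 1.21 and 1.58 in vec against 2.06 and 1.97 in shpkp3-2, a log2 fold change of 0.62 (limma adjusted p = 0.323). UTP4, of the early small subunit precursor, had the lowest, with 3.59 and 3.78 in vec against 3.34 and 3.12 in shpkp3-2, a log2 fold change of -0.46 (limma adjusted p = 0.414). Without the first vec array the median of the list was 0.052, and by quantile normalization it was 0.12.

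The 76 mitochondrial ribosomal protein genes tested, of 77, had a median log2 fold change of 0.15, and 60 were above 0. These proteins build the separate ribosome of the mitochondrion. Their values spread more widely than those of the cytosolic genes, from -0.85 for MRPL9 to 0.71 for MRPL24. MRPL9 had 4.69 and 4.89 in vec against 4.06 and 3.81 in shpkp3-2 (limma adjusted p = 0.197). MRPL24 had 3.58 and 4.04 in vec against 4.51 and 4.52 in shpkp3-2 (limma adjusted p = 0.303). At an unadjusted p under 0.05, 1 gene was higher and 2 were lower, against 7.35% and 4.98% of all probes. Without the first vec array the median was 0.0069, and by quantile normalization it was 0.051.

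The 43 translation factors had a median log2 fold change of 0.13, with 31 above 0 and with 1 higher and 1 lower at an unadjusted p under 0.05, against 7.35% and 4.98% of all probes. The median was 0.070 without the first vec array and 0.013 by quantile normalization. EEF2, which moves the ribosome along the message, had 5.83 and 6.32 in vec against 6.89 and 7.37 in shpkp3-2, a log2 fold change of 1.05 (SE 0.26, limma adjusted p = 0.230). EIF4G1, the scaffold of the cap-binding complex, had 3.54 and 4.09 in vec against 3.16 and 3.02 in shpkp3-2, a log2 fold change of -0.73 (SE 0.24, limma adjusted p = 0.319). EIF6 stands in both this list and that of ribosome biogenesis.

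The 16 genes of RNA polymerase I and its factors, which make the ribosomal RNA precursor, had a median of 0.049, from -0.31 for POLR1A to 0.59 for POLR1G, and by quantile normalization the median was 0.011. The 22 genes tested of 23 for the S6 kinases and mTOR control had a median of 0.0066, from -0.27 for RPS6KB2 to 0.51 for RPS6KA3. The median of that list turned to -0.091 without the first vec array and to -0.075 by quantile normalization. The 9 relatives of ribosomal proteins outside the rule had a median of 0.13, with 8 above 0, from -0.027 for RPL7L1 to 0.39 for RPL22L1, and by quantile normalization the median was 0.044. At an unadjusted p under 0.05, limma called 0 genes in any of these 3 lists, against 12.3% of all probes.

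**Figure D5:**
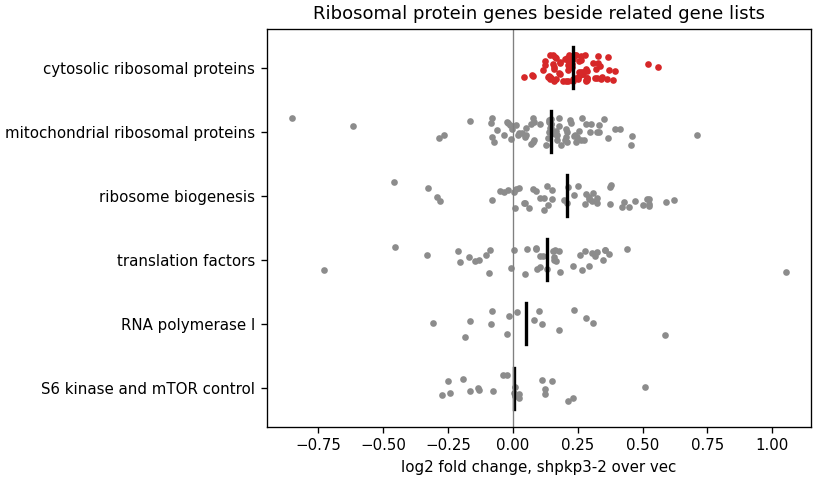
Log2 fold change, shpkp3-2 over vec (75th percentile scaling), of each tested gene of 6 lists, 1 point per gene with random vertical spread, and the median of each list as a black bar. The cytosolic ribosomal protein genes lie in a narrow band with a median of 0.23 (0.061 by quantile normalization), while the other lists drawn spread to both sides of 0.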

How the data were processed

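RNA of vec and shpkp3-2, both HCT116 derived (2 arrays each, grouped by the titles in the labels), was Cy3 labeled by the authors and hybridized to single color Agilent arrays. The authors deposited the output of Agilent Feature Extraction, version 10.7.3.1 per the file headers and 9.1 per the submitters' processing notes. The deposited intensity is the processed signal on a linear scale, detrended and background subtracted, with no scaling between arrays. The deposited mean signals and background medians are intensities before correction. The deposited detection flags are 0 or 1 and are another kind of value. The array was designed on hg18, so no probe coordinates are given.

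The log2 intensity minus the 75th percentile of each array over 51538 spots that are not controls was used. Spots with the non-uniformity flag (26 to 39 per array) were left out, and spots of a probe were averaged. A probe was tested if both arrays of a clone, or of both clones, were well above background (30512 probes), with limma 3.58.1 in R 4.3.3, no covariates and Benjamini-Hochberg adjustment at 0.05. Intervals are at 95%. The depth is not a count here, and the number of arrays limits the precision. Nothing in the labels says whether the arrays of a clone came from separate cultures beyond separate RNA collections, so p-values measure the spread between these arrays. Python 3.11.15, pandas 2.3.3, numpy 2.4.6 and matplotlib 3.10.9 were used for further values.

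Of the 216 probes, 196 matched RefSeq genes by accession and 20 by symbol. The members, lists, tests and alternatives were chosen with earlier results of these data known. All members could be named, and given in full were members past the threshold, the 5 highest and 5 lowest log2 fold changes, RPLP0, the paralogs and members not above background, and from the other lists the highest and the lowest gene. Some genes that this rule names, and 1 list, are not reported here. RPL39L and RPSA did not enter the main test. The design text pairs the arrays by RNA collection. The deviations of same-numbered arrays had a correlation of -0.199, and a fit with this collection as a block was run beside it. The other alternatives were normexp (offset 50), quantile normalization, median centring, no scaling (added after the data were seen), other filters on dim probes, a trended prior, the mean of all probes of a gene, updated symbols and each array left out, where the lone array is assumed to vary like the other clone.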

Additional observations from a re-analysis of the deposited data

How the results depend on the processing

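limma called 0 of the ribosomal protein genes under all alternatives run, the replicate block by RNA collection included, where the median log2 fold change was 0.23 and the lowest adjusted p 0.489. Over these alternatives it called between 0.00528% (weaker detection flag) and 2.78% (replicate block) of all features tested. The median moved by more than the spread between arrays (SD 0.11) with quantile normalization (0.061) and no scaling (0.020). When single arrays were left out its range was 0.10 to 0.35. The extremes, without vec 1 and without vec 2, were also moved by more than that spread. With quantile normalization the log2 fold change turned to -0.095 for RPL10, -0.12 for RPL28, -0.081 for RPS26, -0.036 for RPL7 and -0.036 for RPLP0. With no scaling, which moves every probe by the same -0.21, it turned to -0.14 for RPL10, -0.14 for RPL28, -0.094 for RPS26, -0.089 for RPL7, -0.077 for RPLP0 and -0.069 for RPL10L. With single arrays left out the values ran from -0.031 to 0.18 for RPL10, -0.027 to 0.26 for RPS26 and -0.030 to 0.28 for RPL7, the lowest being without vec 1. The mean of all probes gave -0.21 for RPL28 and -0.025 for RPS26. The cause was not tested. For RPL22, RPS27L, RPS23, RPS12, RPL10, RPL28, RPS26, RPL7, RPLP0, RPL10L and RPL3L the other 149 values kept their sign and their side of the threshold. Further genes were not followed through every alternative. RPS28, the brightest spot of the first vec array, turned to -0.53 with quantile normalization, a value that is uncertain at the top rank. The 2 arrays of a clone limit the precision, and RPL39L and RPSA, not well above background, entered only the fit with no filter on detection, where 0 of 82 genes were called.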
